A study of Mus musculus with 42 samples.

Results

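Mouse embryonic stem (ES) cells that were released from self-renewal changed the expression of many genes within 6 h, and the samples taken at 12 h and 18 h show how much of that change was kept. The comparison described here sets the libraries at 12 h and 18 h, as a single group, against those at 6 h, over all 14296 genes, and then asks whether each change brought a gene nearer to its level at 0 h. The samples were chosen by their time labels, which gave 6 of the 42 libraries of the series, the duplicates A and B at each of the 3 time points. The 2 libraries at 0 h supplied the level of reference.

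The series follows poly-A RNA, sequenced from stranded libraries, every 6 h for 120 h as ES cells form embryoid bodies, which are floating aggregates in which the germ layers arise. All samples come from W9.5, a single ES cell line whose strain background is labelled 129X1/SvJ, used at a low passage number. At 0 h the cells were undifferentiated, and at 6 h, 12 h and 18 h they had been left to differentiate spontaneously for that time after the cytokine LIF was withdrawn, although every label calls them ES cells. Courses A and B are biological duplicates, so every p-value measures only the spread between such duplicate cultures of a single line. No culture held in self-renewal and harvested at 6 h, 12 h or 18 h was analysed here, so that time, handling of the cultures and differentiation cannot be told apart. Whole cultures were lysed, and fewer cells of a type cannot be told apart from less RNA per cell.

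As background, mouse ES cells are held in a naive state by LIF, which acts through STAT3, and by a network of transcription factors that includes Nanog, Klf4 and Esrrb. Release from that state opens a formative phase in which de novo DNA methyltransferases and factors such as Otx2 and Fgf5 come on. Cells that are detached, fed or stressed also show an immediate early response, in which growth factor signalling through ERK and actin signalling through SRF and YAP switch on short-lived transcripts such as the AP-1 genes, whose own products and feedback inhibitors then help to shut them off.

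The 8 libraries from 0 h to 18 h held between 18288111 and 43354709 counted reads, at which 3 reads, about the level that a count of 0 allows, corresponded to 0.0725 to 0.175 CPM, counts scaled to library size. Levels are given as log2 CPM in the order course A, course B, and differences are on the log2 scale with their standard errors. The defining markers of ES cells were high throughout. Pou5f1, the central pluripotency factor, stood at 9.88 and 10.08 (0 h), 10.05 and 10.27 (6 h), 10.52 and 10.48 (12 h) and 10.48 and 10.34 (18 h), and its difference between 6 h and the later libraries did not pass the test (0.29 ± 0.15, adjusted p = 0.134). Markers of fibroblasts, which serve as feeders for ES cells, summed to 83.5 to 86.4 CPM at 0 h, 41.2 to 44.2 CPM at 6 h and 25.8 to 36.0 CPM later. Of the 12 fibroblast markers in the files, 3 never exceeded 3 reads and 1, the collagen gene Col5a1, was called lower (-0.85 ± 0.12, adjusted p = 3.6e-06), a call lost without either 6 h library (course A: -0.85, adjusted p = 0.000288; course B: -0.84, adjusted p = 0.000299). Whether feeder RNA bears on the results was not tested. Markers of endoderm summed to at most 18.0 CPM and those of the primitive streak to at most 25.9 CPM in any of the 8 libraries.

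At adjusted p below 0.0001 in limma's moderated test, 1393 genes, or 9.74% of those tested, differed between 6 h and the later pair of time points. Of these, 593 (4.15%) were higher and 800 (5.60%) were lower at 12 h and 18 h. The median size of a called change was 0.977 on the log2 scale, and 674 genes changed at least 2-fold. The change had the same sign in both courses for all 1393, and for 1388 the 2 libraries at 6 h did not overlap with the 4 later ones, which was also true of 55.2% of all genes. The median change over all genes was -0.04. Many calls needed both 6 h libraries. Without that of course A 231 genes were called higher and 305 lower, and without that of course B 247 and 393, while the sign of the change was kept for all 1393. Among the later libraries, leaving out that of course A at 12 h lowered the genes called higher to 393.

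By their mean levels, 880 of the 1393 called genes (63.2%) were nearer to 0 h at 12 h and 18 h than they had been at 6 h, 564 of them still on the same side of the 0 h level and 316 past it by a smaller distance. A further 220 (15.8%) passed the 0 h level and ended farther from it than at 6 h, and 293 (21.03%) moved onward in the direction that they had taken by 6 h. Over all genes the shares were 53.2%, 8.51% and 38.3%. The directions were unequal. Among genes that rose after 6 h, 443 of 593 (74.7%) came nearer to 0 h and 58 moved onward. Among those that fell, 437 of 800 (54.6%) came nearer and 235 (29.4%) moved onward. Of all genes with a higher or a lower mean after 6 h, 56.7% and 50.1% came nearer.

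**Figure D1:**
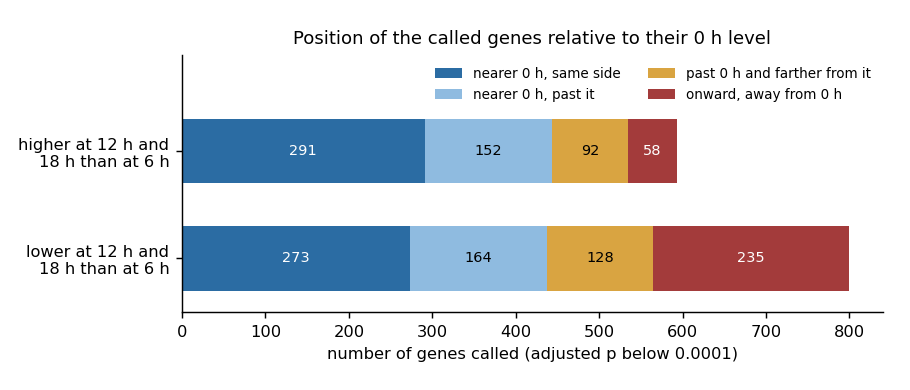
Number of genes called higher (upper bar) or lower (lower bar) at 12 h and 18 h than at 6 h, split by where the mean of 12 h and 18 h lay relative to the mean at 0 h. The onward segment holds 235 of the genes that fell and 58 of those that rose.

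The initial step involved more genes. Between 0 h and 6 h, 3762 genes (26.3%) were called, 1692 up and 2070 down, and between 0 h and the later pair 4207 genes (29.4%) were called. Of the genes called by 6 h, 707 (18.8%) were called in the opposite direction afterwards and came nearer to 0 h, 347 of the genes that had gone up and 360 of those that had gone down. They make up 90.1% of the 785 genes called in both steps. In the median gene of the former set 77.0% of the 6 h change was undone, with quartiles of 56.3% and 97.6%, and in the latter 71.9%, with quartiles of 55.5% and 92.9%. A share above 100% means that the mean passed its 0 h level. Genes of both sets were chosen for a called return, measured from the same 6 h libraries. Large shares follow in part from that choice, and the smallest were 23.0% and 27.0%. The share undone is not given for all genes called by 6 h, so these medians describe the chosen genes only. At 12 h and 18 h, 472 of the 707 were no longer called against 0 h and 235 still were.

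Both steps use the 6 h libraries, so an error in those libraries alone gives them opposite signs, and 53.2% of all 14296 genes came nearer to 0 h. The courses were therefore crossed, with the initial step taken from the libraries of one course and the return from the other, which share no library. With the initial step from course A 53.5% of all genes came nearer to 0 h, and with it taken from course B 50.04%. The called genes are not given in this way, because both 6 h libraries entered their choice. Of the 1596 genes that were at least 2-fold up at 6 h in course A, 82.5% were lower after 6 h in course B, with a median of -0.46. Of the 2292 that were at least 2-fold down, 62.3% were higher, with a median of 0.24. Taken the other way, 81.8% of 1426 induced genes were lower in course A (median -0.51) and 57.1% of 2408 repressed genes were higher (median 0.14). For comparison, genes with an initial difference under 0.5 were taken too. With the initial step from course A, 53.7% of those up were later lower in course B, and 54.6% of those down were higher. With it from course B the shares were 53.7% and 54.2%. Genes induced by more than 3 on the log2 scale in course A had a median return of -1.33 in course B, while those repressed by as much had 0.38.

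**Figure D2:**
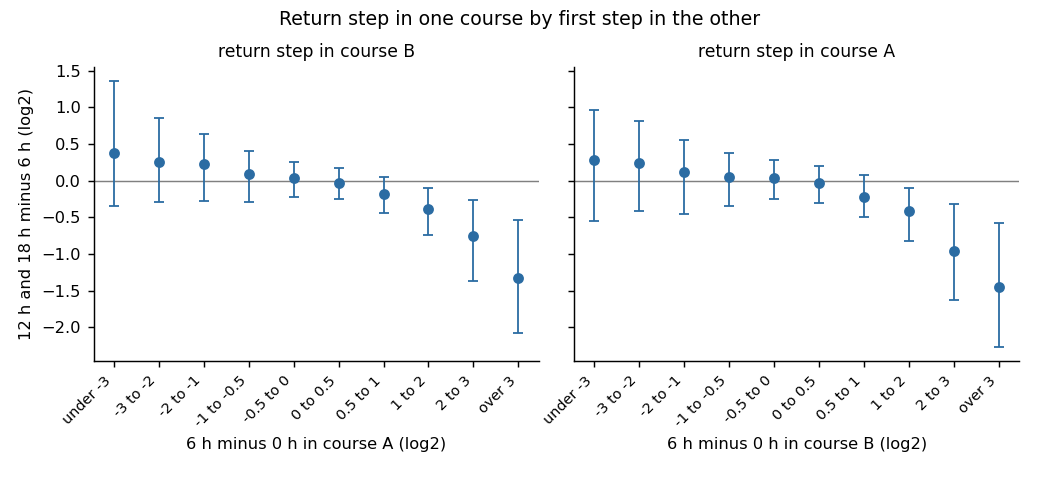
Change from 6 h to the mean of 12 h and 18 h in one course (vertical axis, log2) for genes grouped by their change from 0 h to 6 h in the other course (horizontal axis, log2), with points at the median and bars from the lower to the upper quartile of the genes. The medians fall steadily from the strongly repressed to the strongly induced genes in both panels, and beyond 0.5 on either side their distance from 0 is greater for induced than for repressed genes.

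The 707 genes were chosen by differences between the libraries up to 18 h, and the later libraries show what became of them. The induced set lay a median of 1.38 above 0 h at 6 h. It lay 0.50 above by 12 h, 0.14 by 18 h and 0.15 by 24 h. From 30 h to 72 h the median lay between 0.03 and 0.23, and it then climbed to 1.01 at 108 h before 0.62 at 120 h. The repressed set lay at -1.35 at 6 h, -0.53 by 12 h, -0.21 by 18 h and -0.21 by 24 h. It reached -0.51 at 108 h and ended at -0.29 at 120 h. The small medians at 12 h and 18 h follow in part from how the genes were chosen. Libraries from 24 h on entered that choice only through the spread estimated over all 42 libraries. Their differences are taken from the same 0 h libraries, which also entered the choice.

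**Figure D3:**
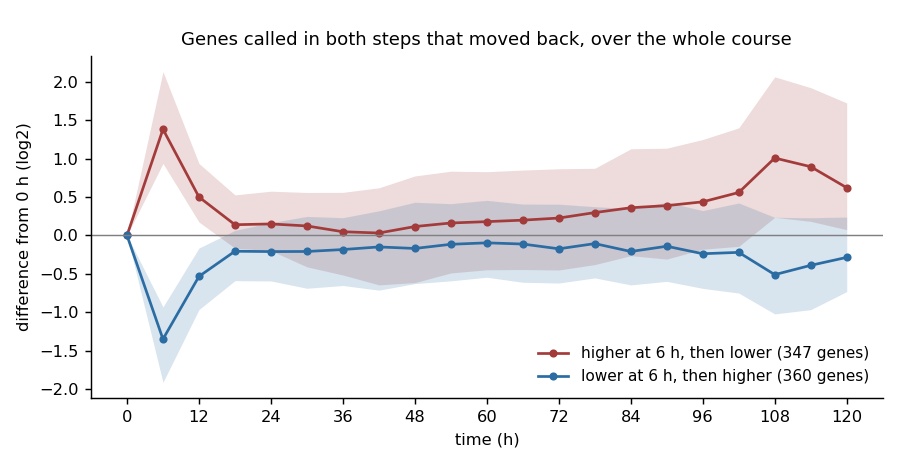
Difference from the 0 h level (log2, mean of both courses) against time in hours for the genes called in both steps that moved back, with the median as a line and the quartiles as a band. The 347 induced genes peak at 6 h with a median of 1.38 and the 360 repressed genes reach -1.35, and both medians lie within 0.21 of the 0 h level at 18 h.

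Immediate early genes were among those that returned. Of 30 immediate early and AP-1 genes, 11 were called lower after 6 h and none higher, and 8 of the 11 came nearer to 0 h. Without the 6 h library of course A 6 were called lower, and without that of course B 8. For the lists that follow, where a count moved by more than 1.5 times without one of these libraries, both counts stand in brackets in that order or the genes that lost the call are named. No list count went lower than the smaller of these without another single library. Over all genes 5.60% were called lower and 4.15% higher, the shares to set beside each list count. The list had a median difference of 1.60 by 6 h and of -0.90 afterwards, beside -0.04 for all genes. Fosl2, a FOS-family partner of JUN in the AP-1 dimer, was at -0.14 and -0.31 in the 0 h libraries, 3.30 and 3.12 in those of 6 h, 0.23 and 0.32 in those of 12 h and -0.42 and -0.22 in those of 18 h. Its 6 h libraries stood above all others, and it fell by 3.23 ± 0.22 (9.39-fold, adjusted p = 7.05e-12), which undid 94.3% of a 10.8-fold rise. Klf6, a zinc finger factor of the same early class, was at 4.75 and 4.75 before release, 7.67 and 7.33 after 6 h, 5.82 and 5.79 after 12 h and 5.51 and 5.39 after 18 h. It fell by 1.88 ± 0.09 (adjusted p = 5.73e-15) and was still called above 0 h, as was Fosl1, whose 34.5-fold rise was 57.0% undone. The fall of Fosl1 lost its call without either 6 h library (course A: -2.90, adjusted p = 0.00023; course B: -2.93, adjusted p = 0.000168). Nr4a1, an orphan nuclear receptor, was at 5.79 and 5.87 at 0 h, 7.76 and 7.71 at 6 h, then 6.64 and 6.67 by 12 h and finally 5.95 and 6.20 by 18 h. Nr4a1 fell by 1.37 ± 0.13 (adjusted p = 3.06e-09), and the later libraries lay between those of 0 h and 6 h.

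Fos itself, the founding member of the family, stood at 0.78 and 0.95 (0 h), 1.85 and 1.87 (6 h), 0.23 and -0.07 (12 h) and -0.48 and -0.41 (18 h), so that all 4 later libraries lay below those at 0 h. It fell by 2.04 ± 0.23 (adjusted p = 8.83e-08). Atf3, a stress-induced AP-1 partner, fell by 1.93 ± 0.24 (adjusted p = 3.37e-07) to a mean 0.19 above that at 0 h. The call of Atf3 was lost without the 6 h library of course B (-1.77, adjusted p = 0.000105). Not all members returned. Myc, which drives growth and metabolism, rose 8.88-fold by 6 h. It was at 4.55 and 4.43 in the 0 h libraries, 7.57 and 7.71 in those of 6 h, 7.81 and 7.79 in those of 12 h and 7.44 and 7.80 in those of 18 h, and the difference after 6 h was 0.07 ± 0.30 (adjusted p = 0.879). The later libraries of Myc overlapped with those at 6 h. For Egr1, a zinc finger factor induced by ERK, the difference after 6 h was -0.40 ± 0.20 (adjusted p = 0.118), and for the JUN relative Junb it was -0.43 ± 0.13 (adjusted p = 0.00809), neither past the threshold.

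**Figure D4:**
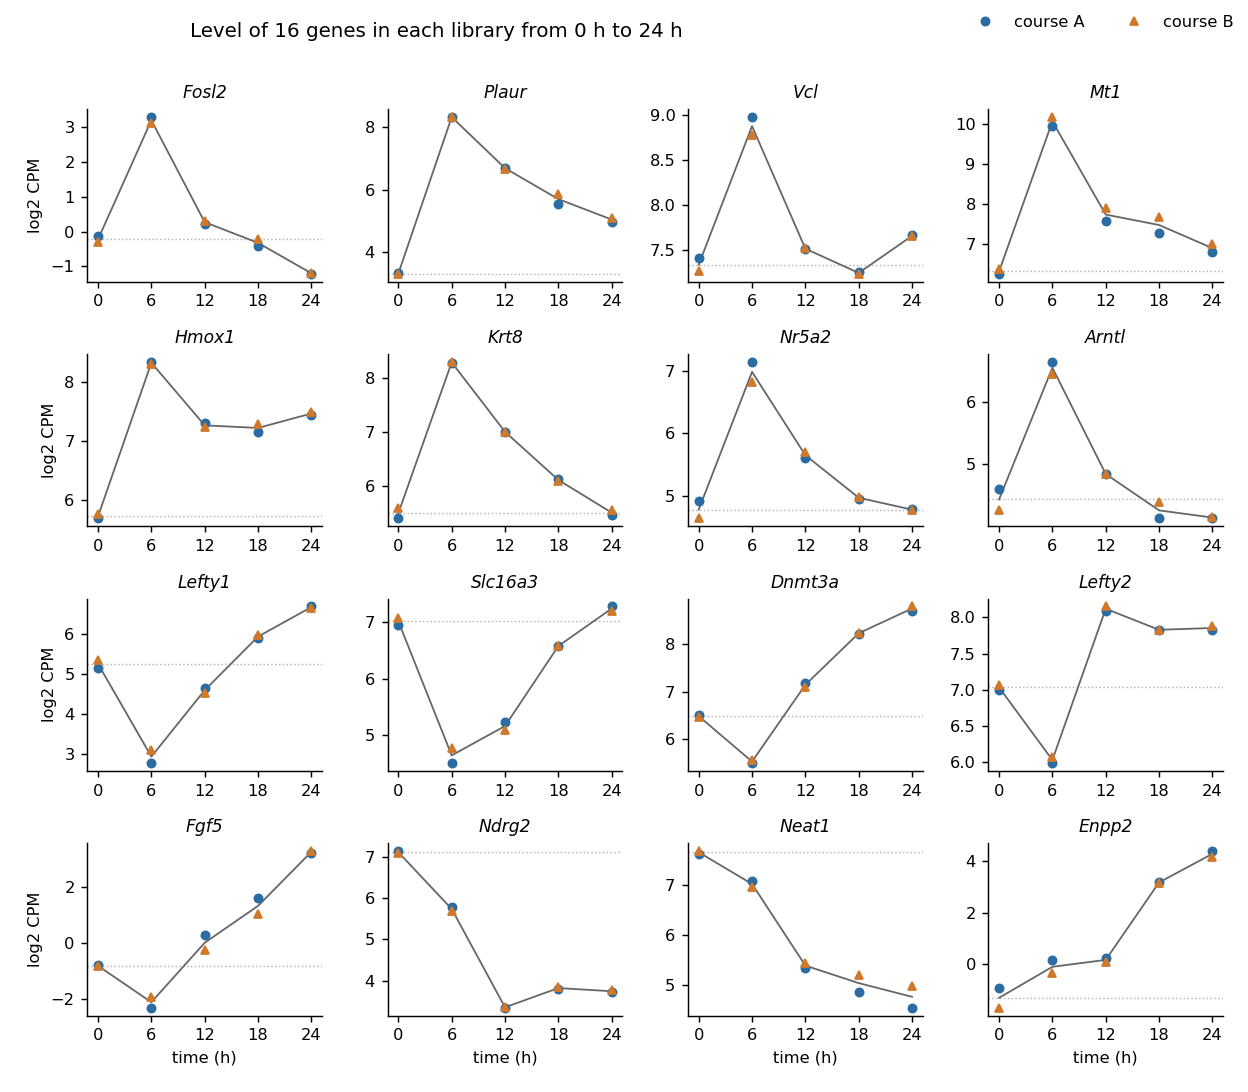
Level (log2 CPM) of 16 genes in each library at 0 h, 6 h, 12 h, 18 h and 24 h, with circles for course A, triangles for course B, a line through the means and a dotted line at the mean of 0 h. In the upper 2 rows the 6 h libraries are the highest of the 10, in Lefty1, Slc16a3, Dnmt3a, Lefty2 and Fgf5 they are the lowest, and Ndrg2, Neat1 and Enpp2 continue in the direction that they had taken by 6 h.

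Genes of the ERK pathway returned only in part. Of 26 feedback and target genes, 7 were called lower (3 and 4) and 1 higher. Dusp5, a nuclear phosphatase that inactivates ERK, was at 2.63 and 2.43 before release, 5.35 and 5.33 after 6 h, 3.46 and 3.45 after 12 h and 2.80 and 2.98 after 18 h. It fell by 2.17 ± 0.14 (adjusted p = 3.01e-12), so that 77.2% of its rise was undone, and all 4 later libraries still lay above those at 0 h. For Dusp16, a phosphatase for the kinases JNK and p38, 129.7% was undone (-1.42 ± 0.11, adjusted p = 1.04e-10). Phlda1, an ERK-induced gene, was at 2.61 and 2.91 at 0 h, 7.60 and 7.60 at 6 h, then 6.16 and 6.11 by 12 h and finally 5.40 and 5.45 by 18 h. It kept the larger share of a 28.6-fold rise, 37.7% of which was undone. Dusp6, the phosphatase most often used as a readout of ERK, was at 5.72 and 5.87 (0 h), 7.24 and 7.24 (6 h), 7.52 and 7.45 (12 h) and 7.15 and 7.005 (18 h). The difference after 6 h was 0.04 ± 0.10 (adjusted p = 0.781). The later libraries of Dusp6 fell on both sides of those at 6 h.

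Secreted and surface genes that act between cells included some of the largest pulses. Plaur, the receptor for urokinase, was at 3.33 and 3.32 in the 0 h libraries, 8.32 and 8.32 in those of 6 h, 6.70 and 6.68 in those of 12 h and 5.54 and 5.86 in those of 18 h. It rose 31.9-fold by 6 h and then fell by 2.13 ± 0.20 (adjusted p = 2.77e-09), which undid 42.5%. Hbegf, a ligand of the EGF receptor, was at 4.82 and 4.90 before release, 8.21 and 8.09 after 6 h, 6.45 and 6.50 after 12 h and 5.47 and 5.58 after 18 h. Hbegf fell by 2.15 ± 0.17 (adjusted p = 2.77e-10), and all later libraries lay between the 0 h and the 6 h levels. Vgf, a secreted neuropeptide precursor, had 6 reads in each 0 h library, 854 and 559 at 6 h, then 168 and 214 by 12 h, with 53 and 35 left by 18 h. Vgf fell by 3.38 ± 0.28 (adjusted p = 2.78e-10), to between its 6 h and its 0 h levels in all 4 later libraries. Ptgs2, which makes prostaglandins, had no read at 0 h, 78 and 42 at 6 h, then 12 and 25 by 12 h, with 2 and 4 left by 18 h. Its fall was called but lost the call when any of 5 libraries was left out, and its fold is not given because the 0 h counts are 0 and the 18 h counts lie near the floor of 3 reads. Over the 26 inflammatory and paracrine genes in the files, 8 were called lower (2 and 3) and 2 higher (0 and 0), with a median difference of -0.40.

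Of 35 cytoskeletal genes and targets of SRF and YAP, 18 were called lower (7 and 8) and none higher, and 15 of the 18 came nearer to 0 h. SRF, which binds the CArG box, activates muscle and actin genes when free actin monomers are used up, and YAP acts through TEAD factors. The list had a median difference of 1.04 by 6 h and afterwards of -0.93. Vcl, which encodes vinculin of cell adhesions, was at 7.41 and 7.27 at 0 h, 8.97 and 8.78 at 6 h, then 7.51 and 7.52 by 12 h and finally 7.26 and 7.24 by 18 h. Its rise was 97.2% undone (-1.49 ± 0.12, adjusted p = 3.72e-10), with the 12 h libraries above those at 0 h and the 18 h libraries below them. Cnn2, the actin-binding protein calponin 2, was at 4.07 and 4.16 (0 h), 6.30 and 6.58 (6 h), 4.59 and 4.77 (12 h) and 4.28 and 4.496 (18 h). Cnn2 fell by 1.91 ± 0.13 (adjusted p = 6.44e-12), to between its 0 h and its 6 h levels. Ccn1, a matrix protein and YAP target, was at 1.26 and 1.57 in the 0 h libraries, 4.52 and 4.77 in those of 6 h, 3.503 and 3.36 in those of 12 h and 2.70 and 2.78 in those of 18 h. It gave back 48.3% of its rise (-1.56 ± 0.13, adjusted p = 6.6e-10). Srf, Actb and Actg1, added after their values were seen, fell too. Actb, beta-actin, was at 10.12 and 10.16 before release, 12.48 and 12.55 after 6 h, 11.71 and 11.79 after 12 h and 11.25 and 11.50 after 18 h. Of its rise 40.2% was undone (-0.95 ± 0.11, adjusted p = 1.44e-07), and for Actg1 60.8% (-1.34 ± 0.12, adjusted p = 3.06e-09). Srf changed by -0.95 ± 0.13 (adjusted p = 1.91e-06), and its call was lost without the 6 h library of course A (-0.89, adjusted p = 0.000385).

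The metallothioneins, small proteins that bind zinc and copper, lie beside each other on chromosome 8. Mt1 was at 6.25 and 6.36 at 0 h, 9.97 and 10.18 at 6 h, then 7.57 and 7.90 by 12 h and finally 7.26 and 7.68 by 18 h. Mt2 was at 5.65 and 5.82 (0 h), 9.82 and 9.94 (6 h), 7.65 and 7.83 (12 h) and 7.72 and 7.68 (18 h). They had risen 13.6-fold and 17.7-fold by 6 h. Mt1 fell by 2.47 ± 0.23 (adjusted p = 3.23e-09) and Mt2 by 2.17 ± 0.19 (adjusted p = 6.83e-10), with all later libraries between the 0 h and the 6 h levels. For Slc30a1, a zinc exporter under the same metal sensor, the difference was -0.65 ± 0.12 (adjusted p = 0.00015), short of the threshold. The third gene called lower of the 8 on the list was the vesicular zinc transporter Slc30a3 (-1.74 ± 0.30, adjusted p = 4.22e-05), whose call was lost without any of 4 libraries (range -1.60 to -1.87). Of 28 target genes of NRF2, a transcription factor of the oxidative stress response, 8 were called lower (5 and 7), all 8 nearer to 0 h, and none higher. Sqstm1, an autophagy receptor, was at 7.43 and 7.498 in the 0 h libraries, 8.73 and 8.65 in those of 6 h, 7.52 and 7.56 in those of 12 h and 7.30 and 7.42 in those of 18 h. Its rise was undone by 101% (-1.24 ± 0.10, adjusted p = 4.23e-10), with the 12 h libraries above those at 0 h and the 18 h libraries below them. Hmox1, which breaks down haem, was at 5.70 and 5.76 before release, 8.35 and 8.31 after 6 h, 7.30 and 7.23 after 12 h and 7.16 and 7.29 after 18 h. Of its rise 41.6% was undone (-1.08 ± 0.11, adjusted p = 2.1e-08), and the later libraries all lay above those at 0 h. For Nqo1, another NRF2 target, the difference was -0.04 ± 0.17 (adjusted p = 0.866), and its later libraries overlapped with those at 6 h.

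AP-1, SRF and the metal sensor MTF1 each read known letters in DNA, and the start sites of some of these genes carry them. The windows below are taken from RefSeq on GRCm38.p6 as the 200 bases before the start site, 5′ to 3′ on the strand of the gene, and capitals mark the motif. For Srf (chr17:46556163-46556362, minus strand) and Dusp5 (chr19:53528945-53529144, plus strand) the capitals are CArG boxes, for Plaur (chr7:24462283-24462482, plus strand) and Srxn1 (chr2:152105324-152105523, plus strand) AP-1 sites with the letters TGANTCA, and for Mt1 (chr8:94178889-94179088, plus strand) and Mt2 (chr8:94172418-94172617, plus strand) metal response elements with the letters TGCNCNC, where N is any base. They are examples of genes of the pulse with matches before the start site, chosen after the matches were known to show how these lie.
Srf: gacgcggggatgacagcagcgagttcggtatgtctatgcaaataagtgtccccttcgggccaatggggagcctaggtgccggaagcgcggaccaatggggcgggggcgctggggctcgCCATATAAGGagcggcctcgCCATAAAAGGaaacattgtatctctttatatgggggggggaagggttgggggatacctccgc
Dusp5: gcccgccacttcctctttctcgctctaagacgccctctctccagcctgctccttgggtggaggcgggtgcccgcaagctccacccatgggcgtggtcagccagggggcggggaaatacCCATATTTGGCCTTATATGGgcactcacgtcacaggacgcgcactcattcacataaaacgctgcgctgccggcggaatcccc
Plaur: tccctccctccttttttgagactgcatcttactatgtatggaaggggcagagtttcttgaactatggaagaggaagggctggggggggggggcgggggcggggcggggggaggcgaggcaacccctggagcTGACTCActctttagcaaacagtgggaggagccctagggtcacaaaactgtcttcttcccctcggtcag
Srxn1: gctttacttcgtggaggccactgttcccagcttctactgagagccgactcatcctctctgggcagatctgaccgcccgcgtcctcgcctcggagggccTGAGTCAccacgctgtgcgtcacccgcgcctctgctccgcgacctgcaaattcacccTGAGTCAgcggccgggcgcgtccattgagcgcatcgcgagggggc
Mt1: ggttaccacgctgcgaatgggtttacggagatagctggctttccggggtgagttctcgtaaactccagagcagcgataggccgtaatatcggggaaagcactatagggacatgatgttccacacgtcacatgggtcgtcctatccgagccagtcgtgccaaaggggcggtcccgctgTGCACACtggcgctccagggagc
Mt2: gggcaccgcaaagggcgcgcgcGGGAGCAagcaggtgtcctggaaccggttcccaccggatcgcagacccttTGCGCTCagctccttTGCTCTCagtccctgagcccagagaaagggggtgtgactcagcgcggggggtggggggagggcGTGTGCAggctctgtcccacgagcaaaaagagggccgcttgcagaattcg
In Dusp5 the CArG boxes adjoin each other, and in Srf they are separated by 10 bases. Mt2 has 4 matches and Mt1 has 1 in the printed bases, which end at the annotated start site. The Mt1 match begins 23 bases before that site, and any matches beyond it are not shown. Both strands were searched in windows of 300 bases, and overlaps between motifs were not removed. An AP-1 site was found in 9.605% of 354 windows of the genes that rose by 6 h and then fell, in 5.43% of 405 windows of those that fell and then rose, in 4.77% of 13721 windows of all tested genes and in 7.81% of all 32851 windows. A CArG box was found in 3.95% and 1.23% of the former sets, in 1.29% of the tested genes and in 1.63% of all windows. None of the 29 windows of the immediate early list held an AP-1 site, and 27.8% of those of the SRF and YAP list held a CArG box. The metal response letters are short and occur in 60.8% of the windows of tested genes and 51.0% of all windows. The share was 61.3% for the genes that rose and then fell, and 62.5% for those that fell and then rose. Srxn1, sulfiredoxin, an NRF2 target, was at 5.10 and 5.21 at 0 h, 6.12 and 6.02 at 6 h, then 5.10 and 5.31 by 12 h and finally 4.99 and 4.93 by 18 h. Srxn1 fell by 0.99 ± 0.12 (adjusted p = 2.62e-07), which undid 108% of its rise.

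Of 29 heat shock proteins and chaperones, 3 were called lower (0 and 0) and 1 higher (0 and 0), none of them nearer to 0 h. Those called lower were Hspa2 (-1.14 ± 0.17, adjusted p = 5.62e-06), Hspb8 (-1.03 ± 0.19, adjusted p = 7.76e-05) and Dnajb4 (-0.73 ± 0.13, adjusted p = 7.08e-05). The one called higher, Hspa5, the chaperone of the endoplasmic reticulum, moved onward (0.62 ± 0.11, adjusted p = 5.45e-05), and its call was lost without any of the 6 libraries from 6 h to 18 h, where the change ranged from 0.58 to 0.66. Hspa1a, the inducible cytosolic HSP70, had risen by 1.40 at 6 h, and the later difference was -0.10 ± 0.21 (adjusted p = 0.733). Genes under ATF4, the stress factor that induces amino acid synthesis and uptake, gave 6 lower (4 and 4) and 1 higher (0 and 0) of 39, none nearer to 0 h. Asns, asparagine synthetase, was at 8.07 and 8.11 (0 h), 8.35 and 8.46 (6 h), 7.58 and 7.64 (12 h) and 7.21 and 7.31 (18 h), below 0 h in all later libraries. Of 24 p53 targets 9 were called lower (5 and 5), 5 of them nearer to 0 h. Mdm2, the ubiquitin ligase that limits p53, was at 7.57 and 7.497 in the 0 h libraries, 8.75 and 8.64 in those of 6 h, 7.58 and 7.68 in those of 12 h and 7.32 and 7.42 in those of 18 h. Mdm2 fell by 1.20 ± 0.15 (adjusted p = 3.65e-07), which undid 103%. Perp, a desmosome-associated p53 target, was at 4.86 and 4.84 before release, 7.26 and 7.25 after 6 h, 6.31 and 6.23 after 12 h and 5.46 and 5.33 after 18 h. Perp fell by 1.42 ± 0.14 (adjusted p = 7.94e-09) and gave back 59.2%.

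Of 25 keratins and epidermal genes, 10 were called lower and none higher, and the list had the lowest median of all, -1.07. Krt8, the keratin of simple epithelia, was at 5.40 and 5.60 at 0 h, 8.28 and 8.30 at 6 h, then 7.01 and 7.001 by 12 h and finally 6.14 and 6.09 by 18 h. It fell by 1.73 ± 0.11 (adjusted p = 1.93e-12), and 62.1% of a 6.92-fold rise was undone. Sfn, the 14-3-3 sigma protein of stratified epithelia, was at 4.44 and 4.34 (0 h), 8.60 and 8.60 (6 h), 6.98 and 7.03 (12 h) and 5.64 and 5.81 (18 h). Sfn fell by 2.23 ± 0.20 (adjusted p = 9.93e-10) and stayed above its 0 h libraries. Dsp, the desmosome protein desmoplakin, was at 5.65 and 5.26 in the 0 h libraries, 6.93 and 6.48 in those of 6 h, 5.02 and 5.01 in those of 12 h and 4.21 and 3.90 in those of 18 h. Dsp fell by 2.17 ± 0.19 (adjusted p = 7.79e-10), to below its 0 h level in all 4 later libraries. Of 30 collagens, laminins and integrins, 9 were called lower (3 and 3) and none higher. Of the 7 trophoblast markers, Krt7 (-1.61 ± 0.25, adjusted p = 9.6e-06), which is also on the keratin list, and the transcription factor Tfap2c (-1.45 ± 0.20, adjusted p = 3.13e-06) were called lower as well. Without a 6 h library both lost the call (Krt7 course A: -1.53, adjusted p = 0.00107; course B: -1.70, adjusted p = 0.000303; Tfap2c course A: -1.43, adjusted p = 0.000341; course B: -1.47, adjusted p = 0.000204). The summed trophoblast markers went from 22.3 to 22.6 CPM at 6 h to 10.6 to 16.1 CPM, from 23.7 to 24.6 CPM at 0 h. The part of these markers in the keratin result was not tested.

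Of 23 naive pluripotency genes, 4 were called lower after 6 h (2 and 2) and none higher, and all 4 came nearer to 0 h from a mean above it at 6 h. Nr5a2, a nuclear receptor that maintains Pou5f1, was at 4.92 and 4.64 before release, 7.15 and 6.82 after 6 h, 5.60 and 5.70 after 12 h and 4.95 and 4.99 after 18 h. Of this 4.61-fold rise 76.0% was undone (-1.68 ± 0.19, adjusted p = 1.24e-07). Prdm14, which represses fibroblast growth factor signalling and DNA methylation, was at 4.66 and 4.69 at 0 h, 5.78 and 5.79 at 6 h, then 4.32 and 4.19 by 12 h and finally 3.83 and 3.59 by 18 h. Prdm14 fell by 1.80 ± 0.20 (adjusted p = 4.79e-08), to below its 0 h libraries. Nanog was at 8.79 and 8.98 (0 h), 9.45 and 9.44 (6 h), 9.001 and 8.94 (12 h) and 8.52 and 8.53 (18 h). Nanog fell by 0.70 ± 0.11 (adjusted p = 7.95e-06), a call lost without either 6 h library (course A: -0.69, adjusted p = 0.000621; course B: -0.71, adjusted p = 0.000436). Klf4, by contrast, had dropped by 6 h (adjusted p = 5.52e-06). It was at 8.399 and 8.46 in the 0 h libraries, 7.12 and 7.11 in those of 6 h, 6.76 and 6.71 in those of 12 h and 6.21 and 6.35 in those of 18 h. Its difference after 6 h (-0.61 ± 0.18, adjusted p = 0.00908) did not pass, nor did that of Esrrb (-0.46 ± 0.19, adjusted p = 0.052) or Zfp42 (-0.78 ± 0.15, adjusted p = 0.000141). Socs3, the STAT3-induced inhibitor of LIF signalling, was at 5.12 and 5.12 before release, 3.23 and 3.20 after 6 h, 2.24 and 2.52 after 12 h and 1.91 and 2.20 after 18 h. No later library lay above those at 6 h, and the difference was -0.997 ± 0.20 (adjusted p = 0.000309). Of 16 LIF and STAT3 genes, 4 were called lower (1 and 2) and 1 higher (0 and 0). Of 12 core pluripotency genes, 2 were called higher (0 and 0) and 1 lower (0 and 0), and of the 10 markers of pluripotent cells 1 was called higher (0 and 0) and 2 lower (0 and 0).

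The Id genes, targets of BMP that hold back differentiation, differed among themselves. Of 21 BMP and Id genes 3 were called lower and none higher. Id2 was at 4.65 and 4.70 at 0 h, 5.62 and 5.63 at 6 h, then 4.64 and 4.55 by 12 h and finally 4.65 and 4.45 by 18 h. Id2 fell by 1.05 ± 0.10 (adjusted p = 6.51e-09), to where its libraries overlapped with those at 0 h. Id4 was at 2.38 and 2.39 (0 h), 3.75 and 3.72 (6 h), 2.12 and 2.01 (12 h) and 1.24 and 1.81 (18 h). Id4 fell by 1.94 ± 0.24 (adjusted p = 5.44e-07), and no later library overlapped with 6 h or 0 h. Id3 had risen 4.88-fold by 6 h, and the later difference was -0.02 ± 0.20 (adjusted p = 0.954). The 9 neuroectoderm markers summed to 77.6 to 84.8 CPM at 0 h, 229 to 239 CPM at 6 h and 91.4 to 119.9 CPM later, so that the 6 h sums were the highest. Their part in other results was not tested. Nes, the intermediate filament nestin, was at 3.82 and 3.47 in the 0 h libraries, 5.87 and 5.73 in those of 6 h, 4.88 and 4.75 in those of 12 h and 4.16 and 4.17 in those of 18 h. Nes fell by 1.31 ± 0.15 (adjusted p = 7.51e-08), to between its 6 h and its 0 h levels in all 4 later libraries. Of the 9, Nes and the tubulin gene Tubb3 (-1.31 ± 0.20, adjusted p = 6.62e-06) were called lower, and Tubb3 lost the call without either 6 h library (course A: -1.30, adjusted p = 0.000574; course B: -1.33, adjusted p = 0.000367). Among 20 clock genes 2 were called lower. Arntl, the core clock activator, was at 4.61 and 4.26 before release, 6.66 and 6.46 after 6 h, 4.85 and 4.85 after 12 h and 4.13 and 4.39 after 18 h. Arntl fell by 2.005 ± 0.15 (adjusted p = 5.65e-11), which undid 94.4% of a 4.36-fold rise. For Per2, a repressor of the clock, the difference was 0.45 ± 0.27 (adjusted p = 0.189).

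**Figure D5:**
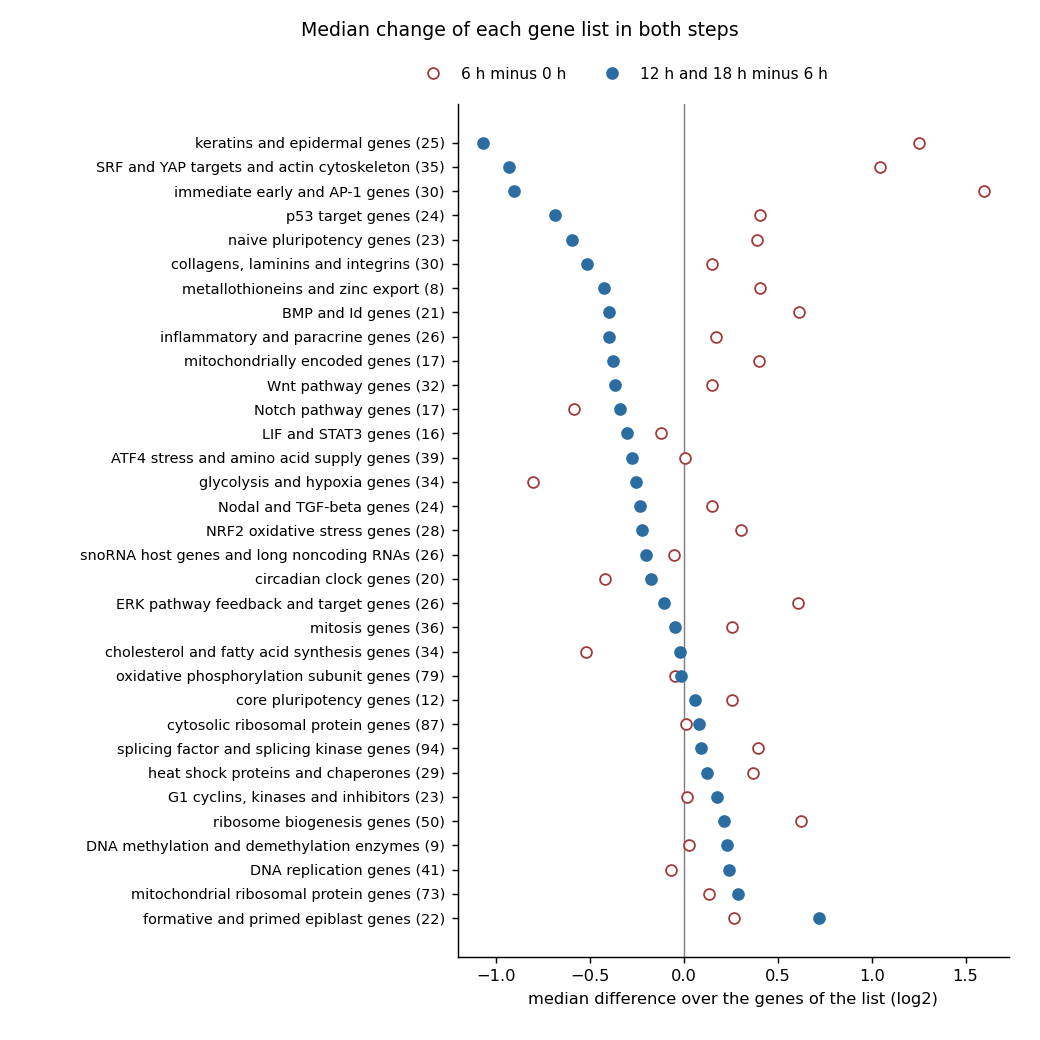
Median difference of each gene list (log2) from 0 h to 6 h (open circles) and from 6 h to the mean of 12 h and 18 h (filled circles), with the number of genes in the files in brackets and the lists sorted by the second value. The keratin, SRF and YAP, and immediate early lists lie at the top with the lowest later medians and initial medians above 1, and the formative list lies at the bottom with a later median of 0.72.

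Genes that were lower at 6 h and then rose included targets of Nodal. Nodal, through its co-receptor Cripto, activates its own antagonists Lefty1 and Lefty2 in the epiblast. Of 24 Nodal and TGF-beta genes, 5 were called higher (3 and 3) and 3 lower. Lefty1 (GRCm38.p6 chr1:180935022-180938400) was at 5.16 and 5.35 at 0 h, 2.77 and 3.10 at 6 h, then 4.66 and 4.54 by 12 h and finally 5.90 and 5.98 by 18 h. Lefty1 rose by 2.33 ± 0.24 (adjusted p = 2.21e-08), which undid 100.5% of its drop in the pooled mean. Both 12 h libraries of Lefty1 lay below those at 0 h and both 18 h libraries above them. Lefty2, its neighbour, was at 6.997 and 7.07 (0 h), 5.99 and 6.07 (6 h), 8.09 and 8.15 (12 h) and 7.83 and 7.83 (18 h). Lefty2 rose by 1.95 ± 0.21 (adjusted p = 5.26e-08), to above 0 h in all later libraries. Reads of the closely related Lefty1 and Lefty2, or Mt1 and Mt2, may have been shared in counting, so that their separate values are uncertain. Nodal itself was at 6.20 and 6.40 in the 0 h libraries, 6.68 and 6.70 in those of 6 h, 6.40 and 6.35 in those of 12 h and 6.40 and 6.48 in those of 18 h, and its difference did not pass (-0.28 ± 0.17, adjusted p = 0.196).

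Tdgf1, which encodes Cripto, was at 9.53 and 9.66 before release, 7.95 and 7.99 after 6 h, 8.66 and 8.60 after 12 h and 9.12 and 8.88 after 18 h. It regained 51.9% of its drop (0.84 ± 0.14, adjusted p = 2.56e-05). This call was lost without 5 of the 8 libraries, and the change ranged from 0.78 to 0.90 over all 8 omissions. Among 32 Wnt pathway genes, 5 were called higher (4 and 2) and 1 lower. Lef1, the nuclear effector of Wnt, was at 0.98 and 0.95 at 0 h, 0.41 and -0.24 at 6 h, then 2.44 and 2.55 by 12 h and finally 4.12 and 4.19 by 18 h. Lef1 rose by 3.24 ± 0.25 (adjusted p = 7.94e-11), and no later library overlapped with 6 h or 0 h. Fzd7, a receptor, was at 6.29 and 6.25 (0 h), 5.56 and 5.53 (6 h), 6.08 and 6.04 (12 h) and 6.63 and 6.72 (18 h). Fzd7 rose by 0.82 ± 0.09 (adjusted p = 3.01e-08), and the later libraries lay above those of 6 h. Its 12 h libraries were below those of 0 h and its 18 h libraries above them. The single Wnt gene called lower was Tcf7l2, another nuclear effector, at 3.85 and 3.83 in the 0 h libraries, 5.05 and 4.94 in those of 6 h, 4.12 and 3.95 in those of 12 h and 3.52 and 3.72 in those of 18 h. Tcf7l2 fell by 1.16 ± 0.11 (adjusted p = 7.94e-09), which undid 101% of its rise.

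Of 22 formative and primed epiblast genes, 9 were called higher and none lower, with a median difference of 0.72. Dnmt3a, a de novo DNA methyltransferase, was at 6.51 and 6.46 before release, 5.50 and 5.57 after 6 h, 7.19 and 7.09 after 12 h and 8.21 and 8.24 after 18 h. It dropped 1.93-fold by 6 h and then rose 4.43-fold (2.15 ± 0.08, adjusted p = 2.36e-16), past the 0 h level in all 4 later libraries. Dnmt3b, its homologue, was at 6.52 and 6.37 at 0 h, 6.49 and 6.45 at 6 h, then 7.43 and 7.45 by 12 h and finally 7.78 and 7.77 by 18 h. It had a difference of 0.03 by 6 h (adjusted p = 0.859) and a later rise of 1.14 ± 0.10 (adjusted p = 5.3e-10). Of the 9 enzymes of DNA methylation and demethylation listed, 3 were called higher and 1, the demethylase gene Tet2, lower. Tet2 fell by 1.29 ± 0.21 (adjusted p = 2.15e-05), with a range of -1.08 to -1.51 over the omission of each library, and 5 of the 8 omissions ended its call. Fgf5, the classic marker of the primed epiblast, had 13 reads in each library at 0 h, 5 and 4 at 6 h, then 36 and 34 by 12 h, with 100 and 39 by 18 h. Fgf5 rose by 2.79 ± 0.15 (adjusted p = 1.28e-13), and no later library overlapped with 6 h or 0 h. With precision weights for counts Fgf5 and Lef1 lost the call (2.83 and 3.19). Sall2, a zinc finger factor, was at 2.99 and 3.15 (0 h), 1.36 and 1.62 (6 h), 3.10 and 3.07 (12 h) and 4.41 and 4.42 (18 h). Sall2 rose by 2.26 ± 0.18 (adjusted p = 2.37e-10), and the later libraries lay above those of 6 h. Its 12 h libraries lay within the range of those at 0 h and its 18 h libraries above it. Ccnd2, a D-type cyclin, was at 0.27 and -0.23 in the 0 h libraries, 1.09 and 0.57 in those of 6 h, 2.86 and 2.89 in those of 12 h and 3.48 and 3.51 in those of 18 h. Ccnd2 rose by 2.36 ± 0.23 (adjusted p = 6.82e-09) and moved onward. Otx2, a homeobox factor of the epiblast added after its values were seen, rose by 0.97 ± 0.15 (adjusted p = 1.02e-05) and lost the call without either 6 h library (course A: 1.04, adjusted p = 0.000296; course B: 0.90, adjusted p = 0.00111).

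Slc16a3, the lactate exporter, was at 6.95 and 7.08 before release, 4.501 and 4.77 after 6 h, 5.23 and 5.09 after 12 h and 6.57 and 6.58 after 18 h. Slc16a3 rose by 1.23 ± 0.13 (adjusted p = 1.53e-08), which undid 51.7% of its drop. Of 41 DNA replication genes 4 were called higher (1 and 1), none lower, and all 4 came nearer to 0 h. Without either 6 h library Rfc5, a subunit of the clamp loader, was the single one left, while Pola2, Rfc2 and Pold1 lost the call. Rfc5 was at 7.68 and 7.69 at 0 h, 7.43 and 7.45 at 6 h, then 7.90 and 7.87 by 12 h and finally 7.91 and 7.90 by 18 h. Rfc5 rose by 0.46 ± 0.06 (adjusted p = 4.77e-07), and no later library overlapped with 6 h or 0 h. Of 73 mitochondrial ribosomal proteins, 5 were called higher (1 and 2) and none lower. Mrps27, which kept the call without either 6 h library, was at 6.32 and 6.29 (0 h), 5.61 and 5.75 (6 h), 6.46 and 6.51 (12 h) and 6.59 and 6.52 (18 h). Mrps27 rose by 0.84 ± 0.10 (adjusted p = 2.3e-07), with all 4 later libraries above both the 6 h and the 0 h libraries. The medians of these lists were 0.24 and 0.29, beside -0.04 for all genes, of which 4.15% were called higher.

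The 293 onward genes were mostly falling ones, and genes of hypoxia and glycolysis were among them. Of 34 such genes, 18 had been called lower by 6 h. After 6 h, 6 were called lower (1 and 2), 5 of them onward, and 1 higher, Slc16a3. Aldoc, a glycolytic aldolase, was at 6.03 and 6.03 in the 0 h libraries, 5.03 and 5.18 in those of 6 h, 3.43 and 3.62 in those of 12 h and 3.23 and 3.44 in those of 18 h. Aldoc fell by 1.68 ± 0.17 (adjusted p = 8.43e-09), and no later library overlapped with 6 h or 0 h. Ndufa4l2, a hypoxia-induced mitochondrial protein, was at 5.62 and 5.64 before release, 4.23 and 4.36 after 6 h, 1.58 and 1.29 after 12 h and 1.18 and 0.76 after 18 h. Ndufa4l2 fell by 3.09 ± 0.21 (adjusted p = 1.26e-11), the largest change among genes called lower in both steps. Ndrg2, a member of the NDRG stress-response family, was at 7.13 and 7.08 at 0 h, 5.80 and 5.68 at 6 h, then 3.35 and 3.37 by 12 h and finally 3.80 and 3.85 by 18 h. Ndrg2 fell by 2.14 ± 0.15 (adjusted p = 2.23e-11), with all 4 later libraries below those at 6 h. Vegfa, the angiogenic target of hypoxia, had a difference of -2.36 in the initial step (adjusted p = 4.18e-11), and -0.49 ± 0.16 (adjusted p = 0.0184) was measured afterwards. For Gapdh, the glycolytic dehydrogenase, the difference was 0.02 ± 0.14 (adjusted p = 0.917).

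Of the called genes 58 continued upward. Enpp2, which makes lysophosphatidic acid, had 12 and 7 reads at 0 h, 30 and 13 at 6 h, then 35 and 44 by 12 h, with 301 and 169 by 18 h. Enpp2 rose by 1.77 ± 0.15 (adjusted p = 8.22e-10). The 12 h libraries overlapped with those at 6 h and the 18 h libraries stood apart. Grhl2, an epithelial transcription factor, was at 4.495 and 4.39 (0 h), 5.12 and 4.98 (6 h), 5.91 and 5.80 (12 h) and 6.10 and 6.04 (18 h). Grhl2 rose by 0.91 ± 0.09 (adjusted p = 3.41e-09), with all 4 later libraries above both the 6 h and the 0 h libraries. Genes that passed the 0 h level with all 3 differences called numbered 19, 9 upward and 10 downward. Chst15, a sulfotransferase, was at 1.71 and 1.79 in the 0 h libraries, -0.11 and -0.24 in those of 6 h, 1.95 and 1.89 in those of 12 h and 3.23 and 3.48 in those of 18 h. Ssbp2, a single-stranded DNA binding protein, was at 1.43 and 1.55 before release, 0.72 and 0.63 after 6 h, 2.41 and 2.50 after 12 h and 3.59 and 3.56 after 18 h. Both were low at 6 h and above 0 h in all later libraries. In the opposite direction Rell1, a TNF receptor-like protein, was at 5.56 and 5.66 at 0 h, 6.68 and 6.49 at 6 h, then 4.95 and 4.99 by 12 h and finally 4.61 and 4.45 by 18 h. Gprc5a, an orphan receptor induced by retinoic acid, was at 4.66 and 4.67 (0 h), 6.11 and 5.9995 (6 h), 4.44 and 4.34 (12 h) and 3.17 and 2.99 (18 h). Both ended below their 0 h libraries.

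The largest falls included genes with lower means at 6 h than at 0 h. Atp6v0a4, a proton pump subunit, was at 3.64 and 3.62 in the 0 h libraries, 2.37 and 2.16 in those of 6 h, -1.059 and -0.88 in those of 12 h and -1.64 and -2.10 in those of 18 h. Atp6v0a4 fell by 3.68 ± 0.38 (adjusted p = 2.35e-08), and no later library overlapped with 6 h or 0 h. A2m, a protease inhibitor, was at 3.93 and 4.06 before release, 3.09 and 2.92 after 6 h, 1.05 and 0.85 after 12 h and -1.64 and -2.10 after 18 h. A2m fell by 3.46 ± 0.22 (adjusted p = 3.21e-12), with all 4 later libraries below both the 6 h and the 0 h libraries. In course B the 18 h levels of Atp6v0a4 and A2m lie near the floor of 3 reads, so the sizes of these falls are uncertain. Prss23, a serine protease, and Loxl4, a lysyl oxidase, had instead risen by 6 h. Loxl4 was at -1.31 and -2.42 at 0 h, 2.47 and 2.69 at 6 h, then 0.42 and -0.14 by 12 h and finally -2.33 and -2.10 by 18 h. Its course B levels at 0 h and 18 h also lie near that floor. Its fall (-3.62 ± 0.58, adjusted p = 1.72e-05) lost its call without 3 libraries (6 h course A: -3.73, adjusted p = 0.000764; 6 h course B: -3.51, adjusted p = 0.00114; 12 h course B: -3.48, adjusted p = 0.000126). Prss23 fell by 3.42 ± 0.47 (adjusted p = 2.2e-06), a call lost without either 6 h library (course A: -3.29, adjusted p = 0.000341; course B: -3.56, adjusted p = 0.000117).

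Of 565 noncoding genes 21 (3.72%) were called and of 13176 coding genes 1361 (10.3%), a difference that was not tested. The noncoding ones were 10 higher and 11 lower, and 16 of the 21 came nearer to 0 h. Neat1, the RNA scaffold of paraspeckles, at chr19:5824708-5845478 of GRCm38.p6 on the minus strand, was at 7.64 and 7.69 (0 h), 7.08 and 6.97 (6 h), 5.34 and 5.44 (12 h) and 4.87 and 5.21 (18 h). Neat1 fell by 1.81 ± 0.11 (adjusted p = 2.14e-12) and moved onward. Miat, a nuclear lincRNA, was at 1.31 and 1.89 in the 0 h libraries, 3.499 and 3.55 in those of 6 h, 1.07 and 1.08 in those of 12 h and 0.16 and -0.74 in those of 18 h. Miat fell by 3.13 ± 0.27 (adjusted p = 9.1e-10), to below its 0 h libraries. For Malat1, an abundant nuclear RNA, the difference was -1.11 ± 0.25 (adjusted p = 0.00107), and Neat1 was the single called gene of the 26 snoRNA hosts and long noncoding RNAs listed. Of 94 splicing genes, 5 were called lower (2 and 2) and 2 higher (1 and 1), no larger shares than the 5.60% and 4.15% of all genes. Ewsr1, an RNA-binding protein, was at 9.20 and 9.02 before release, 9.90 and 9.87 after 6 h, 9.21 and 9.16 after 12 h and 9.07 and 9.20 after 18 h. Ewsr1 fell by 0.72 ± 0.09 (adjusted p = 2.07e-07), which undid 93.2% of its rise. Ptbp2, a splicing repressor, was at 4.61 and 4.65 at 0 h, 6.10 and 5.93 at 6 h, then 5.08 and 5.02 by 12 h and finally 5.49 and 5.28 by 18 h. Ptbp2 fell by 0.80 ± 0.09 (adjusted p = 1.52e-07), and the later libraries lay between those of 0 h and 6 h.

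Further lists, several of them of housekeeping functions, are set beside the 9.74% of all genes that were called. In lists as short as 17 genes, 0 or 1 calls cannot be told from that share. None of 87 cytosolic ribosomal protein genes, of 34 cholesterol and fatty acid synthesis genes or of 17 mitochondrially encoded genes was called by limma in either direction, with medians of 0.08, -0.02 and -0.38, although 3, 18 and 3 of them had an unadjusted p under 0.05. Of 36 mitosis genes only Prc1, which bundles spindle microtubules, was called (-0.56 ± 0.08, adjusted p = 1.76e-06; without the 6 h library of course A -0.54, adjusted p = 0.000295, of course B -0.59, adjusted p = 0.000102), and of 17 Notch pathway genes only the ligand Jag1 (-0.78 ± 0.13, adjusted p = 2.33e-05), whose call was lost without any of 4 libraries (range -0.67 to -0.90). Of 79 oxidative phosphorylation genes, Ndufa4l2 and Cox6b2 were called lower, of which Cox6b2 lost its call without any of 7 libraries (range -0.75 to -0.86), and of 23 G1 cyclins, kinases and inhibitors 3 were called higher (1 and 1) and 2 lower (0 and 1). Of 50 ribosome biogenesis genes, 21 of which had been called higher by 6 h, 2 were called higher (0 and 0) and 1 lower (0 and 0) afterwards, so that most of the list showed no return (median 0.62 by 6 h and 0.21 after it).

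The pooled time points also differed from each other in some genes. Between 12 h and 18 h, 60 genes (0.420%) were called, 48 higher and 12 lower at 18 h, and 32 of them were among the 1393. The change from 6 h had the same sign at 12 h and at 18 h for 1392 of the 1393, and for 1112 (79.8%) the 18 h level lay farther from 6 h. Against 6 h, 12 h alone gave 622 calls and 18 h alone 1407.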

How the data were processed

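Poly-A RNA of 42 libraries was trimmed, aligned to mm10 and counted over GENCODE genes by the authors with Trim Galore, TopHat2 and HTSeq, in versions not given in the sources used here. The strand setting of the counting was not given either, so antisense genes are uncertain. The authors then corrected for background, scaled the libraries with edgeR and deposited 1 file per library with log2 CPM values from limma's voom, which were used as deposited. Whole reads could be recovered from these values to within 2.91e-08 of a read, and gave the library totals and floors. Precision weights computed from them entered an alternative.

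Libraries were grouped by the time and course in their labels. A model of 21 time points was fitted to all 42 libraries with limma 3.58.1 in R 4.3.3 (empirical Bayes with trend, 21 residual degrees of freedom), the mean of 12 h and 18 h was contrasted with 6 h, and p-values were two-sided and adjusted by the Benjamini-Hochberg method over 14296 genes, with calls at adjusted p below 0.0001. Every adjusted p in the text comes from that fit, apart from those given for a comparison without a library. Those come from the same model refitted to the remaining libraries. The script was tested on simulated data. Position relative to 0 h was described from means. Symbols and positions were matched for 14177 genes. Tables and figures were made with Python 3.11.15, numpy 2.4.6, pandas 2.3.3 and matplotlib 3.10.9. The replicates share letters between time points, but the deviations of libraries with the same letter correlated by 0.0492 in the mean of 6 pairs of time points up to 18 h (lowest -0.0125, highest 0.111) and by 0.0795 in the mean of all 210 pairs, 68.6% of which were positive. Since not every pair exceeded 0.1, no block was used.

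Genes were named by a rule. It took the 10 largest called changes in each direction at or above 1 log2 CPM at 6 h or later, up to 6 called and 3 defining uncalled members per gene list, the 5 largest called in both steps onward and the 5 that crossed 0 h in each direction, and the 5 largest noncoding changes. Certain genes that the rule took are not reported here. Genes said to be added after their values were seen lie outside it. The comparison, the gene lists and the motifs were chosen with earlier results of these data known. Floors cover counting error only, while standard errors hold the spread between duplicate cultures. The alternatives were weights, scaling, filters, thresholds, single time points and the omission of each library.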

Additional observations from a re-analysis of the deposited data

Results flagged for a closer look

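The report joins 12 h and 18 h. In 12 of the 171 called genes selected by rule or added later, these time points differed (limma, adjusted p below 0.0001). Of these 12, 10 are given here. On the log2 scale, 18 h minus 12 h was 3.001 for Enpp2, 1.44 for Chst15, 1.42 for Slc16a3, 1.32 for Fgf5, 1.12 for Ssbp2, 1.08 for Dnmt3a and 0.87 for the kinase gene Pim2. It was -0.89 for Krt8, -1.31 for Gprc5a and -2.82 for A2m, whose 18 h level in course B lay near the floor of 3 reads. In each of the 10 the 18 h mean lay farther from the 6 h mean than did the 12 h mean, so the pooled value understates the distance reached by 18 h.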

How the results depend on the processing

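With 2 libraries per time point, each 6 h library sets much of what was called. Leaving out each of the 8 libraries in turn gave 231 to 553 genes higher and 305 to 760 lower than at 6 h, and 361 to 836 nearer to 0 h. The calls were then 2292 to 3709 at 6 h and 2435 to 4067 at 12 h and 18 h against 0 h, and 17 to 66 between 12 h and 18 h. At an adjusted p below 0.05 the counts were 2423 higher, 2988 lower, 3139 nearer to 0 h, 8293 and 8737 against 0 h and 1072 between 12 h and 18 h. With a 2-fold minimum they were 232, 442, 395, 2448 and 2398. With 12 h alone 210 were higher, 412 lower and 347 nearer to 0 h. With precision weights 386 were higher. With quantile normalization 533 were lower and 29 differed between 12 h and 18 h, and 39 did so in a fit of the 8 early libraries. The share of calls that were higher was 42.6% in the report, 31.7% with weights and 50.8% after quantile normalization. The cause of these differences was not tested.

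The replicate block by course letter, where not every pair of time points correlated above 0.1, gave 758 higher, 994 lower and 1094 nearer to 0 h, 4291 and 4733 against 0 h and 76 between 12 h and 18 h. The share of calls nearer to 0 h lay between 55.8% (12 h alone) and 68.4% (without the 6 h library of course B). Of the 171 named calls, 67 held under every alternative run on them, 104 lost the threshold under at least 1, and 0 changed direction. At 3 reads the floor was 0.0725 to 0.175 CPM, and levels below it could not be told from 0.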
